A study of Sus scrofa with 6 samples.

Results

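miR-146a-5p, miR-146b, miR-155-5p and miR-21 are microRNAs (miRNAs) that are widely linked to inflammation, and their levels were followed in the jejunum of piglets around weaning. They were chosen by name from the sequences counted in the study. A sequence took the name of a known swine miRNA when its counts in all 6 libraries equalled those in the study's own list of miRNAs. The 4 miRNAs were found among 239 named known miRNAs, and 533 sequences were counted in all. The study pooled jejunal total RNA of 4 piglets in each library, with equal contribution, and sequenced the small RNA of 6 libraries. W1, W4 and W7 came from piglets weaned at 25 d of age onto a commercial diet and sampled 1, 4 and 7 d later. S1, S4 and S7 came from control piglets that stayed with their sows and were sampled at the same times, when they were 26 d, 29 d and 32 d old. All were Duroc x Yorkshire x Landrace crossbred barrows from 4 litters, untreated apart from weaning, and also had pre-starter feed before weaning. Each condition was therefore 1 pool, so a difference between the libraries of a day has no replicate check, and its interval covers counting error only.

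A miRNA is cut from a hairpin RNA and guides silencing complexes to messenger RNAs, mainly through its seed, bases 2 to 8 from the 5′ end. In human and mouse cells, miR-146a is induced through NF-κB. miR-146a and miR-146b repress IRAK1 and TRAF6, proteins of Toll-like receptor signaling, so they act as a brake on that pathway. miR-155 is made in activated macrophages and lymphocytes of mouse and human and represses SOCS1 and SHIP1, inhibitors of cytokine and immune signaling. miR-21 is abundant in most tissues, represses PDCD4 in human cells, and is high in inflamed human bowel.

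The mature sequences as deposited are shown because the first pair shares a seed and the other two do not. The seed is in capitals.
miR-146a-5p: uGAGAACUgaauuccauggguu
miR-146b: uGAGAACUgaauuccauaggc
miR-155-5p: uUAAUGCUaauugugauagggg
miR-21: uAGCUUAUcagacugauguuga

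The 2 members of the miR-146 family are the pair for which reads could be confused, so the same sequences are given again with the bases that tell them apart in capitals.
miR-146a-5p: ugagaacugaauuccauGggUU
miR-146b: ugagaacugaauuccauAggC
Their first 17 bases are identical, and over the 21 bases of miR-146b they differ at positions 18 and 21, counted from the 5′ end. Clean reads of the study were 15 to 32 nt long, so a read of at most 17 bases could come from either. The share of such reads in the deposited counts is not known here. Of the other counted sequences, 1 had the seed of miR-146, the candidate SSC1_6707.
SSC1_6707: uGAGAACUuugaaggccu
It had 3 reads in S4, 5 in W4, 5 in W7 and none in the other libraries, against 10951 reads of miR-146a-5p and 10512 of miR-146b in all. Apart from that pair, no counted sequence shared a run of 10 or more bases with any of the 4 miRNAs. The genes for the 4 hairpins stand apart from one another in the pig annotation. MIR146A lies next to PTTG1, MIR146B between CUEDC2 and LOC102167427, and MIR21 between PTRH2 and TUBD1. The other arms of the hairpins were not analysed here.

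The total count was between 4441416 and 5373146 reads a library. miR-143-3p, miR-192 and miR-215 alone took 53.5% to 72.8% of it, least in W4. Levels scaled to the library total (CPM, reads per 1000000 counted) therefore moved with these miRNAs. Over all miRNAs whose pair of libraries held 50 reads or more, the median log2 ratio was 0.28 for W1 to S1, 0.83 for W4 to S4 and 0.21 for W7 to S7. Scaling by TMM, which centres on the bulk of the miRNAs, set these medians to -0.04, -0.01 and -0.06. Many values are given on both scales. The 6 measured miRNAs of an epithelial list (miR-192, miR-215, miR-429 and the miR-194 sequences, of 11 listed) summed to 542637 to 579081 CPM in the suckling libraries. The sums were 478312 in W1, 225509 in W4 and 306745 in W7. With TMM they were 588952 to 699986 in the suckling libraries, 461913 in W1, 158323 in W4 and 275088 in W7. miR-192 and miR-215 made up most of each sum. By the library total miR-429 did not follow it, at 1340 to 1432 CPM in the suckling libraries. It was then 1460 in W1, 1595 in W4 and 1671 in W7. With TMM miR-429 was 1458 to 1731 in the suckling libraries, 1410 in W1, 1120 in W4 and 1498 in W7. On that scale W1 and W4 were below every suckling library, and W7 was within their range. In pooled tissue, fewer cells of a type and less RNA per cell cannot be told apart.

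miR-21 was by far the most abundant of the 4, at rank 6 of all 533 sequences by summed reads. miR-146a-5p and miR-146b followed at ranks 66 and 67 and miR-155-5p at rank 122. In every library the order of CPM had miR-21 first and miR-155-5p last. The 4 together made up 1.59% to 2.34% of counts in the suckling libraries, 2.02% in W1, 4.47% in W4 and 2.82% in W7, and nearly all of that was miR-21. The sum of the other three was 303.4 to 656.4 CPM in the suckling libraries, 442.2 in W1, 1613 in W4 and 1807 in W7.

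**Figure D1:**
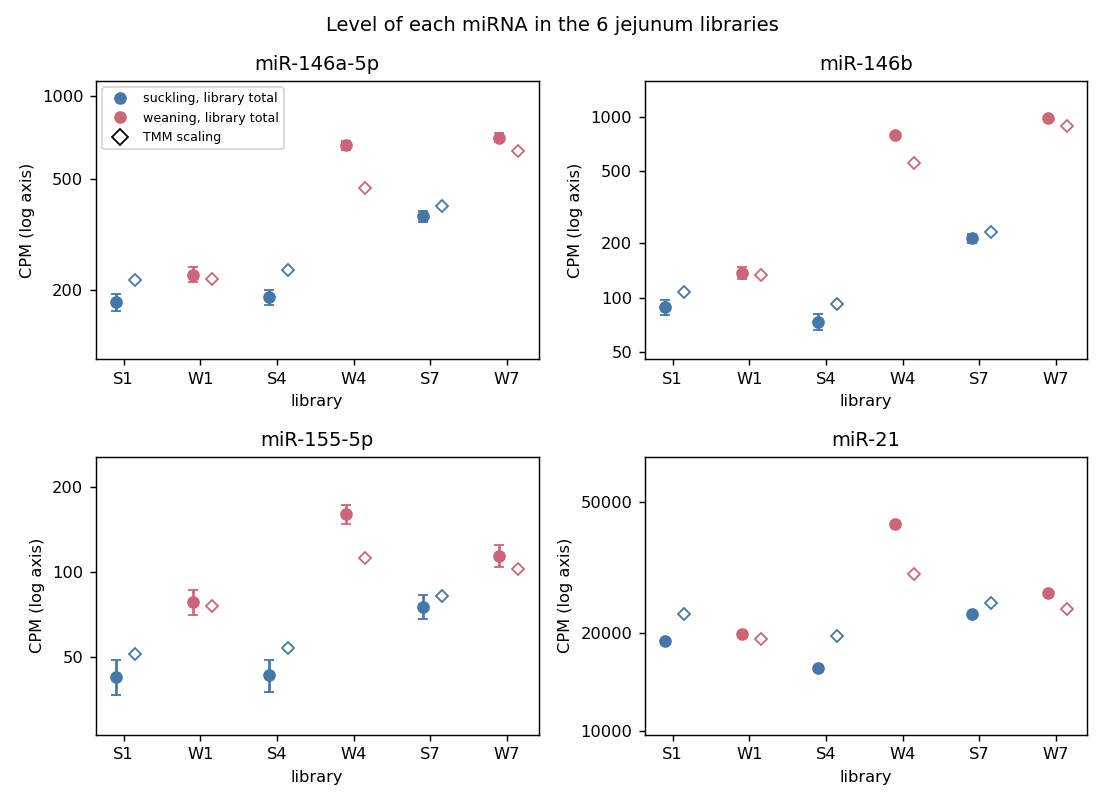
Level of miR-146a-5p, miR-146b, miR-155-5p and miR-21 in CPM (log axis) in each library, suckling in blue and weaning in red. Filled circles are scaled to the library total with 95% exact binomial intervals (counting error only), open diamonds are TMM-scaled. miR-146b goes from 73.0 to 213.3 CPM in the suckling libraries to 790.0 in W4 and 987.1 in W7.

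miR-146b had the widest span of the 4. Its reads were 397 in S1, 388 in S4 and 1146 in S7, and 639 in W1, 3558 in W4 and 4384 in W7. As CPM of the library total these were 88.4, 73.0 and 213.3 in S1, S4 and S7, and 137.4, 790.0 and 987.1 in W1, W4 and W7. W4 and W7 stood above every suckling library on both scales, as did 64.1% of 290 miRNAs by the library total and 15.5% with TMM. W1 lay between S1 and S7. The suckling mean was 124.9 ± 76.9 CPM (SD, n = 3) and the weaning mean 638.2 ± 444.7 CPM (SD, n = 3), so the weaning libraries also differed most among themselves. The rank of miR-146b within a library moved from between 92 and 119 in the suckling libraries to 53 in W4 and 42 in W7.

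The log2 ratio of miR-146b within a day was 0.64 (95% interval 0.45 to 0.82) for W1 to S1, 3.44 (3.28 to 3.59) for W4 to S4 and 2.21 (2.12 to 2.31) for W7 to S7. With TMM the ratios were 0.31, 2.60 and 1.94. The lower value at 7 d went with a higher control, since S7 had 2.92 times the CPM of S4. Against the mean of S1, S4 and S7 on the log2 scale, W7 was 3.15 higher and W4 2.83 higher, and with TMM 2.75 and 2.08. Against S7, the highest control, the log2 ratio of W4 was 1.89 and that of W7 2.21, both above the range of 1.55 over the suckling libraries. With TMM the 2 ratios were 1.26 and 1.94 and that range 1.34, so the step of W4 above S7 was then within the spread of the controls.

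miR-146a-5p shares its seed with miR-146b and moved in the same libraries, but by less. It had 807 reads in S1, 995 in S4 and 1975 in S7, and 1053 in W1, 2986 in W4 and 3135 in W7. Its CPM were 179.6, 187.3 and 367.6 in S1, S4 and S7, and 226.5, 663.0 and 705.9 in W1, W4 and W7. W1 was again below S7. W4 and W7 were above all 3 controls on both scales, as they were for 64.1% of 290 miRNAs by the library total and 15.5% with TMM. The log2 ratio was 0.33 (0.20 to 0.47) for W1 to S1, 1.82 (1.72 to 1.93) for W4 to S4 and 0.94 (0.86 to 1.02) for W7 to S7. After TMM scaling these were 0.01, 0.99 and 0.67, so the value of day 1 was not told from 0 by counting error. The suckling libraries spanned 1.03 on the log2 scale, more than the 0.85 by which W4 and the 0.94 by which W7 exceeded S7. With TMM they spanned 0.88, against 0.22 for W4 and 0.67 for W7.

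The ratio of miR-146b to miR-146a-5p within a library needs no scaling. It was 0.492 in S1, 0.390 in S4 and 0.580 in S7, and 0.607 in W1, 1.19 in W4 and 1.40 in W7. miR-146b was thus the minor member in S1, S4, S7 and W1 and the major member in W4 and W7. Every weaning library was above every suckling library, although the interval of W1 (0.549 to 0.670) overlapped that of S7 (0.539 to 0.624). The mean log2 ratio was -1.06 ± 0.29 (SD, n = 3) in the suckling and 0.01 ± 0.64 (SD, n = 3) in the weaning libraries. The difference of 1.06 had p = 0.1 in a two-sided exact permutation test, the smallest that 3 against 3 libraries can give, and 0.3 after Benjamini-Hochberg adjustment over the 6 pairs of members.

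**Figure D2:**
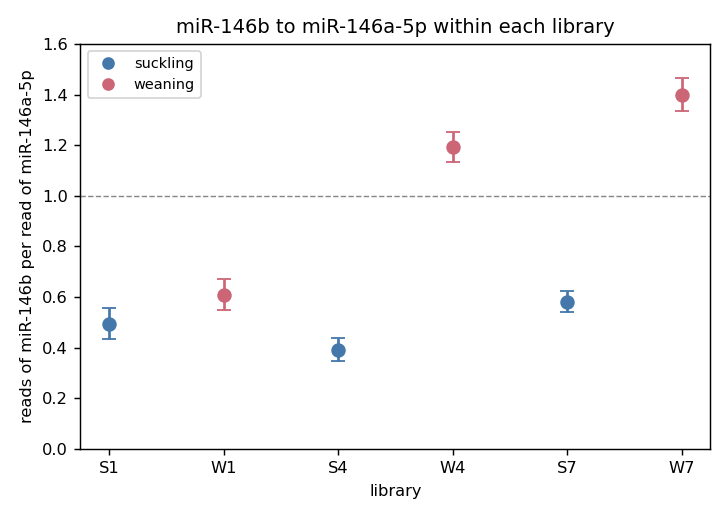
Reads of miR-146b per read of miR-146a-5p in each library, suckling in blue and weaning in red, with 95% exact intervals (counting error only). The dashed line marks equal reads, and W4 (1.19) and W7 (1.40) are the libraries above it.

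miR-155-5p was the least abundant and the only one of the 4 with all 3 weaning libraries above all 3 suckling libraries when scaled to the library total. That order was held by 44.5% of the 290 miRNAs that had 10 or more reads in 3 or more libraries, and by 8.28% with TMM. The reads were 191 in S1, 229 in S4 and 406 in S7, and 364 in W1, 721 in W4 and 508 in W7. The CPM were 42.5, 43.1 and 75.6 in S1, S4 and S7, and 78.3, 160.1 and 114.4 in W1, W4 and W7. W1 and S7 were nearly level, and with TMM W1 was the lower, at 75.6 against 82.0. Its highest level was in W4, unlike that of the miR-146 pair, which was in W7. W7 was 0.49 lower than W4 on the log2 scale (interval -0.65 to -0.32), but 0.13 lower with TMM (-0.30 to 0.03). W4 exceeded S7 by 1.08 and W7 exceeded it by 0.60, beside a range of 0.83 over the suckling libraries. With TMM these were 0.45, 0.32 and 0.67, so both steps were then within the spread of the controls.

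At 1 d after weaning, miR-155-5p had the highest ratio of the 4, and with TMM its log2 ratio of W1 to S1 was 0.56 (0.30 to 0.82). It stood at rank 16 of 229 considered miRNAs there, miR-146b at 34, miR-146a-5p at 95 and miR-21 at 162. At 4 d its TMM ratio was 1.06 (0.84 to 1.28), and at 7 d 0.32 (0.13 to 0.51). Against miR-21 in the same library, miR-155-5p was 0.54 higher on the log2 scale in the weaning libraries, and the groups did not overlap. The interval of S7 (0.00301 to 0.00366 reads per read of miR-21) nevertheless overlapped those of W1 (0.00357 to 0.00439) and W4 (0.00345 to 0.00400). The p of this pair was also 0.1 by the two-sided exact permutation test, and 0.3 adjusted over the 6 pairs. The other 4 pairs of members overlapped between the groups, with p of 0.2 to 0.7.

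miR-21 differed least. Its reads were 84885 in S1, 82823 in S4 and 122184 in S7, and 91838 in W1, 193892 in W4 and 117301 in W7. In CPM these were 18894, 15591 and 22740 in the suckling libraries, and 19754, 43050 and 26411 in the weaning libraries. By the library total W4 stood apart from the other 5 libraries, which lay between 15591 and 26411. With TMM W4 was still the highest, but its step of 0.29 above S7 on the log2 scale was within the suckling range of 0.34. At this depth counting error was negligible, and the log2 ratio of W4 to S4 was 1.47 (1.45 to 1.48), or 0.63 with TMM. For W1 to S1 the ratio was 0.06 and for W7 to S7 0.22, and with TMM both were below 0, at -0.26 and -0.06. With TMM, W1 was the lowest of the 6 libraries at 19077 CPM, and W7 at 23685 lay below S7 at 24681.

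Set beside all considered miRNAs, the 4 were spread from rank 16 to 162 of 229 at 1 d and from rank 2 to 17 of 244 at 4 d. None of the 4 was at least 2-fold higher in W1 than in S1, against 6.11% of 229 miRNAs, or 2.18% with TMM. All 4 were at least 2-fold higher in W4 than in S4, against 33.6% of 244. With TMM, miR-146b and miR-155-5p were, against 4.1%, and miR-146a-5p was just under 2-fold at 0.99. In W7 against S7, miR-146b alone was, against 6.75% of 237 by the library total and 3.38% with TMM. The median log2 ratio of the 4 was 0.49 at 1 d, 1.86 at 4 d and 0.77 at 7 d, beside 0.28, 0.83 and 0.21 over all considered miRNAs. Among known miRNAs miR-146b had the highest ratio at both 4 d, of 202, and 7 d, of 198. miR-155-5p was at place 5, miR-146a-5p at 6 and miR-21 at 12 at 4 d. At 7 d, miR-146a-5p was at 13, miR-155-5p at 43 and miR-21 at 92.

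**Figure D3:**
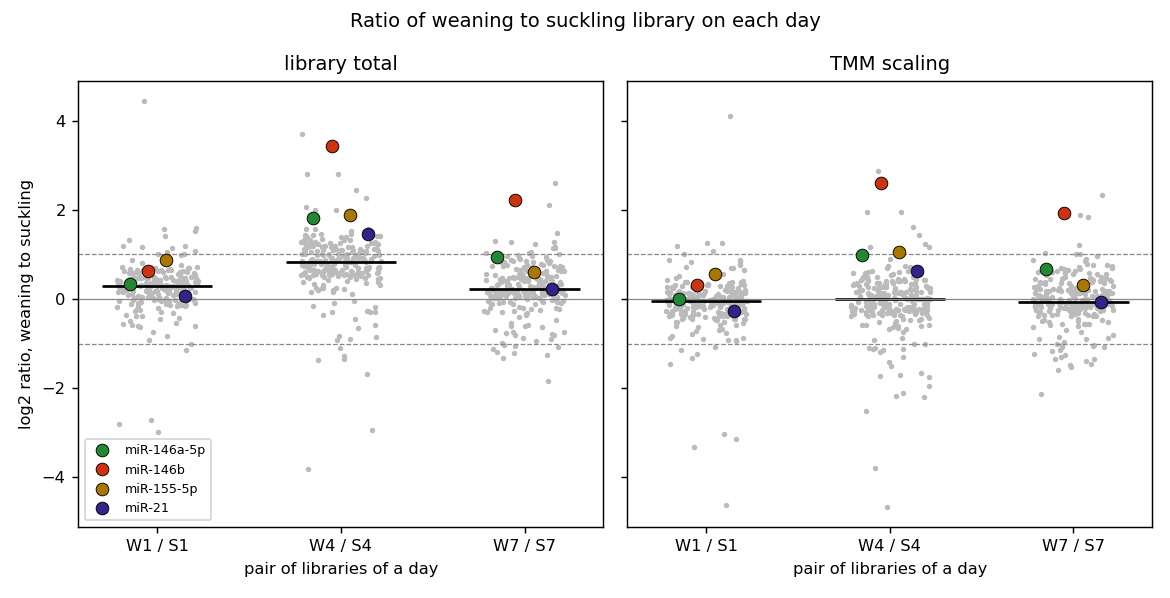
Log2 ratio of the weaning to the suckling library of each day, scaled to the library total (left) and by TMM (right). Grey points are the other miRNAs considered, the black bar is the median of all, dashed lines mark 2-fold, and miR-146b lies at 3.44 and 2.21 on the left at 4 and 7 d.

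The suckling libraries themselves differed. All 4 miRNAs were higher in S7 than in S1 and S4 on both scales, an order held by 57.6% of the 290 miRNAs by the library total and 35.9% with TMM. From S4 to S7 the log2 ratio with TMM was 1.34 for miR-146b, 0.76 for miR-146a-5p, 0.60 for miR-155-5p and 0.34 for miR-21. S4 and S1 were closer, with TMM ratios between -0.22 and 0.11. Age, day and pool cannot be told apart among the suckling libraries.

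Groups of libraries were tested with edgeR's quasi-likelihood test across 290 miRNAs with Benjamini-Hochberg adjustment. With 3 weaning against 3 suckling libraries, no member passed an adjusted p of 0.05, nor did any miRNA (0 of 290, 0%), although 44 had an unadjusted p under 0.05 and DESeq2 called 10. The log2 fold changes by edgeR were 1.87 (SE 0.67, adjusted p = 0.256) for miR-146b, 0.63 (SE 0.24, adjusted p = 0.265) for miR-155-5p and 0.63 (SE 0.40, adjusted p = 0.555) for miR-146a-5p. For miR-21 the change was 0.12 (SE 0.19, adjusted p = 0.845). The weaning group includes W1, which was within the range of the controls for the miR-146 pair on both scales. On the TMM scale of the test it was also within that range for miR-155-5p and below it for miR-21. Leaving out W1, 12 miRNAs passed, miR-146b among them at an adjusted p of 0.048.

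W4 and W7 together were compared with the 3 suckling libraries in a fit that keeps W1 as a group of its own, a grouping chosen with earlier results known. Here miR-146b rose, with a log2 fold change of 2.33 (SE 0.43, edgeR adjusted p = 0.041). It was 1 of 3 sequences called higher among 12 called of 290 (4.14%, or 1.03% called higher), and the only known miRNA of the 3. The call was lost when S1 (adjusted p = 0.094), S4 (0.088), W4 (0.078) or W7 (0.201) was left out, and with RLE size factors (0.056). Over all 11 alternatives the fold change lay between 1.97 and 2.86 and the adjusted p between 1.09e-06 and 0.201. The other members did not pass, with log2 fold changes of 0.95 (SE 0.30) for miR-146a-5p, 0.78 (SE 0.23) for miR-155-5p and 0.27 (SE 0.16) for miR-21. Without S7, which had the highest level of each among the controls, miR-146a-5p at 1.28 and miR-155-5p at 1.03 also passed. Both had an edgeR adjusted p of 0.027, among 20 called of 286. With library totals in place of TMM all 4 members passed, among 67 called. With DESeq2 miR-146a-5p did (adjusted p = 0.032), among 28 called of 290.

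W1, W4 and W7 were also each set against the suckling libraries, with the spread taken from S1, S4 and S7 alone and the lone weaning library assumed to vary like them. No member passed in any of the 3 comparisons with edgeR. DESeq2 did call members in W4 and W7, but there it also called more of all miRNAs than edgeR, whose shares follow. Its calls are therefore not to be set beside those shares. The DESeq2 log2 fold changes of miR-146b were 1.93 in W4 and 2.64 in W7, and that of miR-146a-5p in W7 was 1.18. The count of called miRNAs was 0% of 290 for W1, where 16 had an unadjusted p under 0.05 and DESeq2 also called 0, 2.76% for W4 and 1.72% for W7. The log2 fold change of miR-146b was -0.11 (SE 0.55) in W1, 1.95 (SE 0.50) in W4 and 2.62 (SE 0.49) in W7, with edgeR adjusted p of 0.964, 0.191 and 0.065. Those of miR-146a-5p were -0.38, 0.71 and 1.16, of miR-155-5p 0.27, 0.84 and 0.71, and of miR-21 -0.23, 0.44 and 0.08. In W4, 152 miRNAs including all 4 members passed when only library totals were used, against 8 with TMM.

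Other miRNAs linked to inflammation were read as a list. Of 9 listed, 7 were tested by edgeR. With W4 and W7 against the suckling libraries 0 passed, against 4.14% of all 290 miRNAs, a share at which a short list can hold none. The median log2 fold change of the list there was 0.38, beside -0.01 over all miRNAs. The highest of them were miR-212 at 1.29 (SE 0.36, adjusted p = 0.116) and miR-132 at 1.16 (SE 0.24, adjusted p = 0.053), which in mouse and human come from the same transcript. The value of miR-212 rests on few reads, 3 in S1, 7 in S4, 10 in S7, 10 in W1, 24 in W4 and 19 in W7. In mouse and human miR-132 is induced by CREB and restrains inflammatory signaling. miR-31 (-0.44) and miR-34a (-0.26) were on the other side of 0. miR-221-3p (0.24), miR-222 (0.38) and miR-9 (0.42) lay between.

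miR-132 was also the miRNA whose pattern over the 6 libraries was most like that of miR-146b, by Pearson r of TMM-scaled log2 CPM (r = 0.999 over 6 libraries, among 200 miRNAs compared). Its reads were 70 in S1, 74 in S4 and 131 in S7, and 96 in W1, 263 in W4 and 264 in W7, so the counts were low but W4 and W7 stood apart. With TMM its span was narrower than that of miR-146b, from 17.5 CPM in S4 to 53.3 in W7. miR-29a (r = 0.976) and miR-1307 (0.968) came next. The 3 most like miR-146a-5p were miR-132 (0.964), miR-142-5p (0.960) and miR-1307 (0.959), and its r with miR-146b was 0.963. For miR-155-5p they were miR-221-5p (0.917), miR-10a-5p (0.905) and miR-10b (0.894), and for miR-21 they were miR-221-3p (0.972), miR-148b-5p (0.956) and miR-20b (0.909). These values describe 6 libraries that share their day and their composition, and 6 points leave high r easy to reach.

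**Figure D4:**
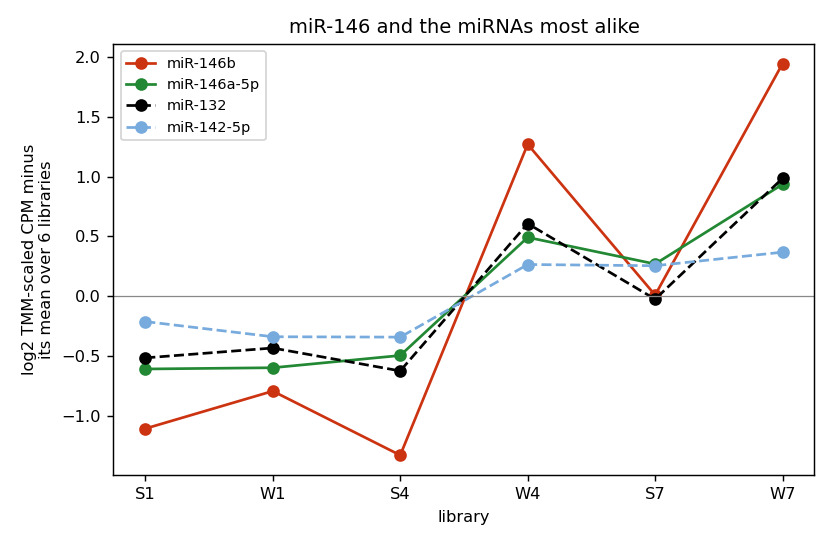
TMM-scaled log2 CPM of miR-146b, miR-146a-5p, miR-132 and miR-142-5p in each library, each as the difference from its own mean over the 6 libraries. miR-132 follows miR-146b at a smaller span, and miR-142-5p, a leukocyte marker, is lower in S1, S4 and W1 than in S7, W4 and W7.

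Markers of leukocytes moved with the 4 miRNAs in part. Of 5 listed, 4 were measured (miR-142-5p, miR-142-3p, miR-150 and miR-342). Their summed level with TMM, mostly miR-142-5p, was 2995 to 4506 CPM in the suckling libraries, highest in S7. It was 3069 in W1, 4541 in W4 and 4826 in W7. By the library total it was 2389 to 4152 CPM in the suckling libraries, 3178 in W1, 6468 in W4 and 5381 in W7. With TMM, miR-142-5p and miR-150 were above every suckling library in W4 and W7. On that scale miR-342 in W4 (46.6 CPM) was below every suckling library, and miR-142-3p in W7 (242.3) was below S7 (290.9). None of the 4 markers passed the edgeR test of W4 and W7, against 4.14% of all 290 miRNAs. Their median log2 fold change there was 0.31, beside -0.01 over all miRNAs. Reads of miR-146b per read of miR-142-5p, a ratio chosen after the values were seen, were 0.0362 in S1, 0.0339 in S4 and 0.0568 in S7, and 0.0491 in W1, 0.135 in W4 and 0.201 in W7. W4 and W7 were above every suckling library in this ratio, which reuses the same miR-146b counts and so adds no separate support. For miR-21 the same ratio was 7.74, 7.25 and 6.05 in the suckling libraries and 7.06, 7.36 and 5.37 in the weaning libraries, and the groups overlapped. Against miR-150, miR-146b was 1.32 to 3.02 in the suckling libraries, 6.0 in W4 and 7.68 in W7. For miR-146a-5p the ratio to miR-150 was 5.04 in W4 and 5.49 in W7, either side of the 5.20 of S7. For miR-155-5p it was 1.22 in W4 and 0.890 in W7, either side of the 1.07 of S7. Against miR-142-5p, miR-142-3p and miR-342, both miR-146a-5p and miR-155-5p were instead higher in W4 and W7 than in every suckling library. Per read of miR-142-5p, miR-146a-5p was 0.113 in W4 and 0.143 in W7, against 0.0978 in S7, the highest control. For miR-155-5p these values were 0.0274, 0.0233 and 0.0201. These ratios also reuse the counts of the members. All 9 listed miRNAs of smooth muscle and stroma were measured, and their sum, mostly miR-143-3p, was 162200 to 207428 CPM in the suckling libraries, 205143 in W1, 330211 in W4 and 333683 in W7. With TMM it was 176044 to 260030 in the suckling libraries, 198110 in W1, 231831 in W4 and 299247 in W7, so that W7 alone stood above the controls. None of the 9 passed the edgeR test of W4 and W7, against 4.14% of all 290 miRNAs. Their median log2 fold change there was 0.09, beside -0.01 over all miRNAs. The part of these cell types in the levels of the 4 miRNAs was not tested, and neither was that of the lower miR-192, miR-194 and miR-215.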

How the data were processed

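Small RNA of pooled jejunum (4 piglets a library) was sequenced by the authors on a HiSeq2000 after 15 cycles of PCR, from fragments of 15 to 32 nt. The authors removed adapters, low-quality reads and other RNA classes (Rfam 10.1). They aligned clean reads without mismatches to Sscrofa 9.2 with Bowtie (version 0.12.2 in the submitters' notes) and compared them with miRBase 19.0. The deposited tables hold read counts per mature sequence, not normalized by the authors. For the step from alignments to counts, and for the treatment of other-arm reads or shifted ends, no description was found in the sources used here. The authors' FPKM values and Student's t-test were not repeated.

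Names were given by matching counts (at least 20 reads in all) with the study's list of miRNAs. Where a sequence stood on several rows of a table (54 sequences, none of the 4 miRNAs) its highest count was used. In most libraries the total exceeded the clean reads that the study states, so some reads stand on several rows. CPM used the library total, and TMM scaling from edgeR stands beside it. Log2 ratios have exact conditional binomial 95% intervals, which cover counting error only, since PCR reads without molecular identifiers are not independent molecules. Total counts are given in the report. A count of 0 was set to 3 in ratios over all miRNAs. Groups were tested with edgeR 4.0.16 (quasi-likelihood, TMM, at least 10 reads in at least 3 libraries) and DESeq2 1.42.0 in R 4.3.3, adjusted over all miRNAs. Other steps used Python 3.11.15 and scipy. Likeness used miRNAs with at least 50 reads a library on average and a pseudocount of 0.5 CPM. The edgeR script was tested on simulated data.

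The libraries are pools, so p-values measure the spread between pools of different days. The libraries of a day share the sampling day, and the correlation of same-day deviations from the group means was 0.0651, -0.233 and 0.0144 at 1, 4 and 7 d over 204 miRNAs. The named miRNAs were the 4 members, sequences with their seed, the 3 most alike of each, and the marker and inflammation lists. The members and lists were chosen with earlier results of these data known. Alternatives were other scalings, filters and thresholds, other controls, leaving out each library, and the day as a block. Using each other suckling library as control was added after the data were seen.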

Additional observations from a re-analysis of the deposited data

How the results depend on the processing

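No member or group has more than 3 libraries, each 1 pool, so all within-day values rest on 2 libraries. The ratios of miR-146a-5p and miR-146b at 4 and 7 d and of miR-155-5p on each day kept their sign under every scaling and control tried 1 at a time. For miR-155-5p in W1 against S7, however, the log2 ratio of 0.05 (-0.16 to 0.26) was not told from 0 by counting error. With TMM and S7 as control together it was -0.12. With the suckling libraries of the other days as control, W1 gave log2 ratios of -0.29 for miR-146a-5p and -0.059 for miR-146b, and against S7 alone -0.70 and -0.63. For miR-21, W1 against S1 changed sign with TMM (-0.26), DESeq2 size factors (-0.23), the total less the 3 most abundant miRNAs (-0.21) and S7 as control (-0.20), and W7 against S7 with the same 3 scalings (-0.059, -0.060 and -0.0021).

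The number of miRNAs at least 2-fold higher was 14 in W1, 82 in W4 and 16 in W7. It was 5, 10 and 8 with TMM, 6, 11 and 8 with DESeq2 size factors, 6, 11 and 9 without the 3 abundant miRNAs, and 42, 172 and 57 at a fold of 1.5. With at least 20 reads in the pair it was 22 in W1 and 30 in W7, and scaled to the clean reads 47 in W4. The number at least 2-fold lower was 6, 7 and 9. In W4 it was 22 with TMM, 21 with DESeq2 size factors, 20 without those 3 miRNAs and 11 with the clean reads, in W7 19 with TMM, 19 with DESeq2 size factors and 15 without those 3 miRNAs, and at a fold of 1.5 it was 12, 12 and 23.

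The count called with 3 against 3 libraries (0) was 1 with library totals and 10 with DESeq2, and 0 to 12 with a library left out. For W4 and W7 against the suckling libraries (12) it was 67 with library totals, 28 with DESeq2, and 1 to 20 with a library left out (1 without S1 or S4, 7 without W4, 20 without S7). For W4 (8) it was 152, 13, and 0 to 14, with 0 without S4. For W7 (5) it was 16, 22, and 0 to 24, again with 0 without S4, and 14 with the filter raised to 50 reads. In W4 against the controls miR-146b passed in 4 of 10 alternatives and in W7 in 5 of 10. In W1 with library totals miR-146b was at 0.14 and miR-21 at 0.050, and leaving out a library moved miR-146b from -0.29 to 0.42. Leaving out a library moved miR-21 with 3 against 3 from -0.0034 to 0.32 and the log2 ratio of miR-146a-5p to miR-155-5p from -0.37 to 0.18. The cause of these changes was not tested. With the day as a replicate block (paired libraries of a day), 0 miRNAs passed, miR-146b had a log2 fold change of 1.64 (edgeR adjusted p = 0.159), and no member passed with or without the block. The block was fitted for that comparison only.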
